A study of Mus musculus with 2 samples.

Results

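Ly6c2-positive CD8 T cells with low Ccl5 were examined among leukocytes from the aortas of ApoE-/- C57BL6/J mice. A barcode was kept if it held at least 200 genes and at most 10% of its counts on mitochondrial genes. Among kept cells, a member carried at least 1 count of the CD3 genes Cd3d, Cd3e and Cd3g together, at least 1 of Cd8a and Cd8b1 together, and none of Cd4. It carried at least 1 count of Ly6c2 and at most 1 of Ccl5. It also stayed within limits on genes of immature lymphocytes (at most 1 count of Dntt, Rag1 and Arpp21), of B cells (at most 2 of Cd79a, Cd79b and Ms4a1) and of macrophages (at most 2 of C1qa, C1qb and C1qc). The members were thus chosen by measured UMIs of these genes, and their values for those genes are given as a description only. The rule found 67 of 2957 kept cells, 48 of 2061 in the WD library and 19 of 896 in the chow diet library. WD stands as the labels give it, and the other mice were fed chow. All mice lacked ApoE, the lipoprotein ligand whose loss raises plasma cholesterol and leads to atherosclerosis, so no group here had an intact Apoe gene; the labels give no age, sex or time on the diet. For each diet the cells of 10 aortas, sorted as viable and CD45+, were pooled into 1 library made with the 10x Genomics 3' v2 kit. Diet and library therefore cannot be told apart, and there is no replicate of either diet. The unit is the unique molecular identifier (UMI), which counts captured messenger RNA molecules from their 3' ends.

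CD8 T cells leave the thymus as naive cells. They keep transcription factors such as Lef1 and Tcf7, home to lymph nodes through Ccr7, and hold little of the killing machinery. After antigen or cytokine stimulation they gain granzymes, Nkg7, chemokines such as Ccl5 and Xcl1, and receptors shared with natural killer (NK) cells. Ly6C, a small membrane-anchored surface protein encoded in the mouse by Ly6c1 and Ly6c2, is found on inflammatory monocytes and on CD8 T cells, where type I interferon and memory differentiation raise it. Ccl5 is a chemokine of effector and memory CD8 T cells.

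The members held 198996 UMIs in the WD library and 90783 in the chow diet library. The median was 3741.5 UMIs per WD member (range 1497 to 12861) and 4492 per chow diet member (2521 to 10476). Comparison groups came from the same libraries. There were 107 Ly6c2-negative cells, which met every other part of the rule (64 WD and 43 chow diet cells, medians of 3065.5 and 3458 UMIs). There were 306 Ccl5-positive CD8 T cells, with at least 2 Ccl5 UMIs and any Ly6c2 (231 and 75 cells, medians of 3089 and 4290). There were also 51 NK cells without CD3 UMIs and with Ncr1 or Klrb1c (33 and 18 cells, medians of 3346 and 3582.5). Members were deeper per cell than Ly6c2-negative cells in both libraries, and a deeper cell more easily shows 1 UMI of Ly6c2. The libraries shared 3 barcodes, none of them a member's.

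Of the 67 members, 5 carried transcripts of myeloid cells. Over 14 myeloid genes (Lyz2, C1qa, C1qb, C1qc, Fcer1g, Tyrobp, Csf1r, Cd68, S100a8, S100a9, Thbs1, Cd14, Cxcl2 and Spi1) these 5 held 23 to 352 UMIs each, whereas each of the other 62 held at most 2. The 3 WD cells held 154, 27 and 23 such UMIs, and the 2 chow diet cells 352 and 43. Their median depth was 8226 UMIs, against 3805 in the other 62. In 1 WD cell the neutrophil gene S100a8 gave 22 UMIs and the chemokine gene Cxcl2 49, and in 1 chow diet cell Cxcl2 alone gave 255. In the other 3, 342 to 539 UMIs came from class II antigen presentation genes, against a median of 0.5 in the 62 cells. Dapl1, a gene of naive T cells, was at 0 in 4 of the 5 and at 2 UMIs in the other. The 5 cells gave 23 of the members' 238 Ly6c2 UMIs. No doublet caller was run, and whether these barcodes hold 1 cell or more was not tested. Results are given with all 67 members and, where they differ, with the 62 (45 WD and 17 chow diet cells). Cells of the other CD8 groups were left out by the same measure, whereas NK cells were not filtered by it. This left 60 of 64 WD and 37 of 43 chow diet Ly6c2-negative cells, and 220 of 231 and 66 of 75 Ccl5-positive cells. Such barcodes were thus not particular to the members. The panel and its limit of 3 UMIs were chosen after the values were seen.

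The label of the group rested on 5 markers, and the data bore out part of them. Cd8b1, the beta chain of the CD8 coreceptor, was detected in 97.9% of WD and 100% of chow diet members, and Ly6c2 in all of them, as the rule requires. Klra7, which encodes an inhibitory Ly49 receptor of NK cells, had 0 UMIs in all 67 members, which allows a share of up to 4.48% of cells with a UMI. It was detected in 60.6% of WD and 44.4% of chow diet NK cells. Xcl1, a chemokine that attracts cross-presenting dendritic cells, was found in 3 WD members (6.25%) and in 0 chow diet members, against 25.1% and 32.0% of Ccl5-positive cells. Cd7, a surface glycoprotein of T and NK cells, was found in 33.3% and 21.1% of members, 29.4% and 30.7% of Ccl5-positive cells and 72.7% and 55.6% of NK cells. With Klra7 at 0 in all 67 members, none could hold Klra7, Xcl1 and Cd7 together. The cells are therefore called here by the rule, and not by an innate or NK-like type.

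**Figure D1:**
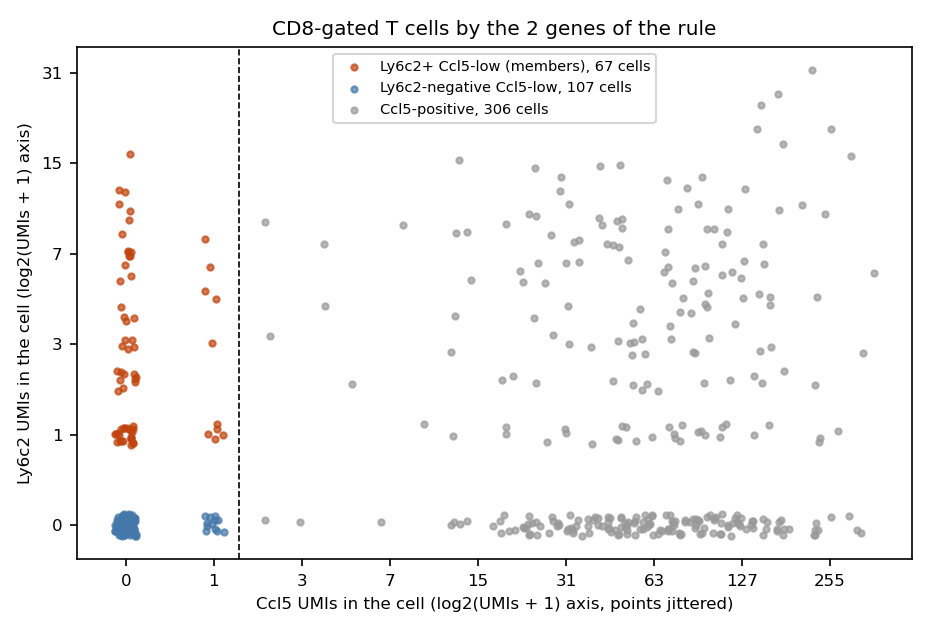
UMIs of Ly6c2 (vertical axis) against UMIs of Ccl5 (horizontal axis) in each CD8-gated T cell of both libraries, on log2(UMIs + 1) axes with jitter; red points are the 67 members, blue points the 107 Ly6c2-negative cells, grey points the 306 Ccl5-positive cells, and the dashed line lies between 1 and 2 Ccl5 UMIs. Few cells lie just right of the line, while members crowd at 0 Ccl5 UMIs and spread from 1 to 16 Ly6c2 UMIs.

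The 2 rule genes set the members apart unevenly, as the plot of Ccl5 and Ly6c2 UMIs shows. Ly6c2 stood at 1 UMI in 28 members (19 WD and 9 chow diet), at 2 in 10, at 3 in 6 and at 4 or more in 23, with a highest value of 16 in WD and 11 in chow diet members. Ccl5 stood at 0 in 57 members and at 1 in 10. The limit on Ccl5 thus fell in a sparse range, whereas many members sat at the lowest Ly6c2 value that the rule admits. Among Ly6c2-positive CD8 T cells outside the limit, 152 had 2 or more Ccl5 UMIs (106 WD and 46 chow diet cells), and 5 of these had 2 to 5; the median in Ccl5-positive cells was 60 in WD and 72 in chow diet cells. A stray Ly6c2 UMI was uncommon in B cells, which should lack the gene: 2.70% of 482 WD and 2.27% of 132 chow diet B cells had one, at medians of 2438 and 2809.5 UMIs. These B cells held at least 3 UMIs of Cd79a, Cd79b and Ms4a1 together and none of the CD3 genes. They also met the rule's limits on immature and macrophage genes. Barcodes with stray T cell RNA were thus partly left out in advance. Of all Ly6c2 UMIs in kept cells, members held 180 of 1869 in the WD library (9.63%) and 58 of 774 in the chow diet library (7.49%).

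Cells near the limits are given as a description. Members with 1 Ly6c2 UMI (28 cells, median 3582 UMIs) had Dapl1 in 71.4%, Lef1 in 75.0% and the protease gene Ctsw in 35.7%. Members with 2 or more (39 cells, median 4263 UMIs) had Dapl1 in 79.5%, Lef1 in 87.2% and Ctsw in 79.5%. Both sets were thus alike in Dapl1 and further apart in Ctsw. The 5 Ly6c2-positive cells just outside, with 2 to 5 Ccl5 UMIs, had Dapl1 in 80.0% and Gzmk in none, while the 147 with over 5 had Dapl1 in 15.6%, Lef1 in 31.3% and Gzmk in 40.8%.

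Because Ly6c1 and Ly6c2 lie close in sequence, reads from stretches they share may be left uncounted or counted for the other gene. Which of these happened was not tested. Of the 50-base windows in the last 400 bases of 4 Ly6c2 transcripts, 24.2% to 41.6% also occur in a Ly6c1 transcript. Members held 1 Ly6c1 UMI in all. The window around the start of Ly6c2 is shown because the gene defines the cells, with those of Nkg7 and Dapl1, chosen after their values were seen, because both genes were higher in members than in Ly6c2-negative cells. The windows run from 250 bases before to 50 after the start, 5′ to 3′ on the gene's strand, from RefSeq on GRCm38.p6, and capitals mark TGTGGT, the core bound by RUNX factors, or ACCACA, the same core on the opposite strand.
Ly6c2 (chr15:75111922-75112221, minus strand): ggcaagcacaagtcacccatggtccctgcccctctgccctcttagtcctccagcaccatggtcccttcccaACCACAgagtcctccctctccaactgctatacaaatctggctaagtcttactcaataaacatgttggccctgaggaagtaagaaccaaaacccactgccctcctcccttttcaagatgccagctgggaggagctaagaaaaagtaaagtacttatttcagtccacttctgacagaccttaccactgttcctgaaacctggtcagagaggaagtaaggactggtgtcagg
Nkg7 (chr7:43436888-43437187, plus strand): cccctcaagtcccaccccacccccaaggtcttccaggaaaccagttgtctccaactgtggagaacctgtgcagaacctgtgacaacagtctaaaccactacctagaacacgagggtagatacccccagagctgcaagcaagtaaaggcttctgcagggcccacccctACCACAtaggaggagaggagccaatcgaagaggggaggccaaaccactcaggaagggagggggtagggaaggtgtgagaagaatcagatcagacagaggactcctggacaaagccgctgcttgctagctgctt
Dapl1 (chr2:59484403-59484702, plus strand): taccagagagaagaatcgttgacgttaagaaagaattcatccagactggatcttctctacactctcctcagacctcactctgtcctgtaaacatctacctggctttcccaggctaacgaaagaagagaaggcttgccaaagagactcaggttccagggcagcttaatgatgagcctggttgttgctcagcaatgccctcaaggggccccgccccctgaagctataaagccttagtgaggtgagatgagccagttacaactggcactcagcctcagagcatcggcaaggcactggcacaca
The Ly6c2 and Nkg7 windows each hold 1 core, on the opposite strand and starting 179 and 83 bases before the start, and the Dapl1 window holds none on either strand. The core was searched on both strands with no other motif beside it, and 16.8% of the 32851 promoter windows of this length hold it. A match is a description of letters and not a bound site.

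Genes of naive T cells were detected in most members. Lef1, a transcription factor of naive T cells, was found in 81.3% of WD and 84.2% of chow diet members, against 68.8% and 60.5% of Ly6c2-negative cells and 22.5% and 29.3% of Ccl5-positive cells. Dapl1 was found in 75.0% and 78.9% of members, 32.8% and 32.6% of Ly6c2-negative cells and 11.3% and 14.7% of Ccl5-positive cells. Igfbp4, a binding protein of insulin-like growth factors that marks naive T cells, was found in 39.6% and 47.4% of members, 26.6% and 27.9% of Ly6c2-negative cells and 2.17% and 1.33% of Ccl5-positive cells. Members stood above both other CD8 groups in each library for all 3 genes. B cells gave a level of free RNA and misassigned reads that may be too low, since they were chosen without CD3 UMIs and were shallower than members. Lef1 was detected in 0.415% and 2.27% of B cells, Dapl1 in 0 and 0.758%, and Igfbp4 in none. Ccr7, the lymph node homing receptor, was found in 81.3% and 52.6% of members, 60.9% and 51.2% of Ly6c2-negative cells and 18.2% and 20.0% of Ccl5-positive cells. Tcf7 was in 60.4% and 36.8% of members, 59.4% and 51.2% of Ly6c2-negative cells and 32.0% and 37.3% of Ccl5-positive cells, so chow diet members did not exceed the other CD8 groups for Tcf7.

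These shares also depend on depth. With every cell thinned to 1000 UMIs, which left out no cell, Dapl1 was detected in 24 of 48 WD and 8 of 19 chow diet members (42.1%), against 20.3% and 25.6% of Ly6c2-negative cells. The members stayed above Ly6c2-negative cells for Dapl1 in both libraries. Thinned Lef1 was in 43.8% and 31.6% of members, against 34.4% and 41.9% of Ly6c2-negative cells, so its order turned round in the chow diet library.

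**Figure D2:**
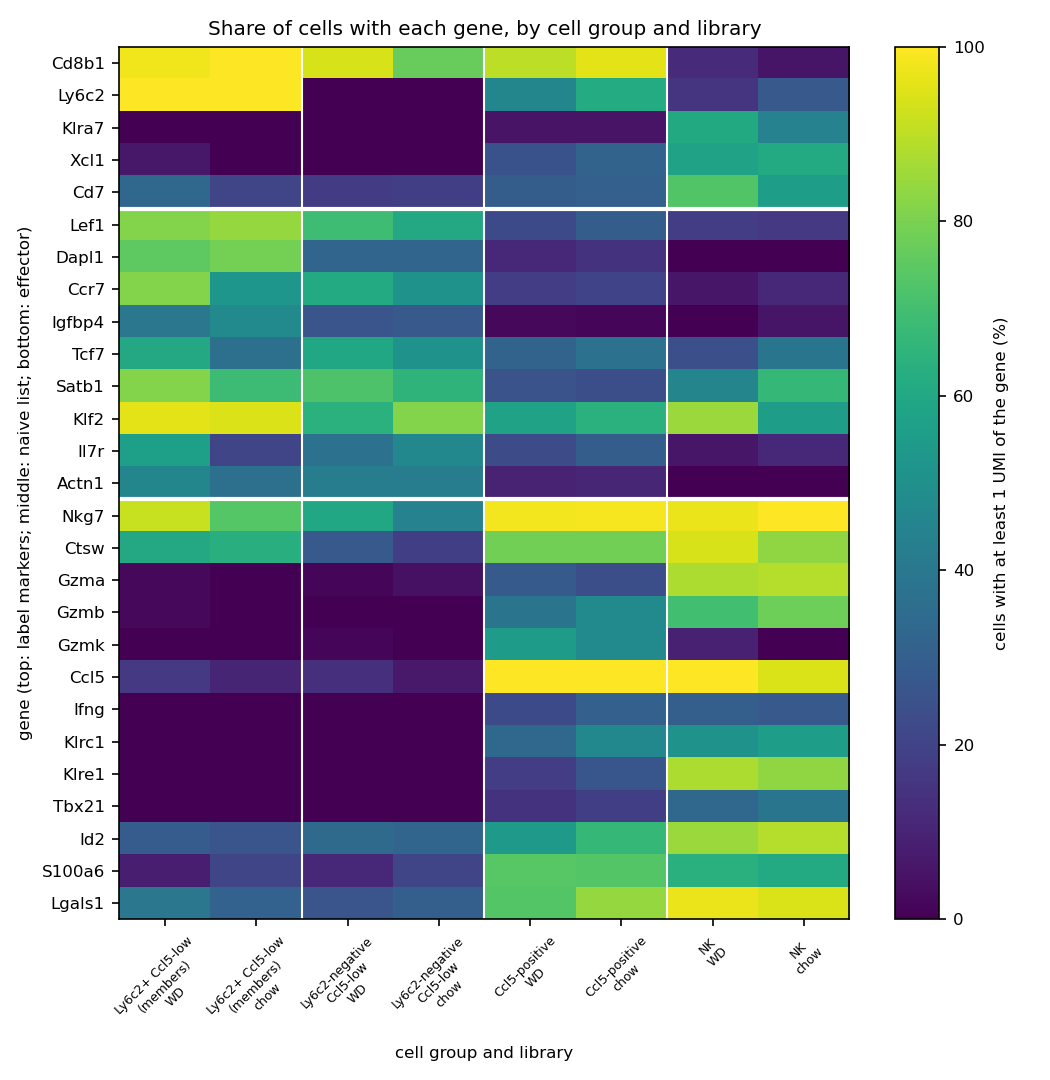
Heat map of the percentage of cells with at least 1 UMI for the label markers, 9 naive genes and 13 effector and cytotoxic genes (rows), in members, Ly6c2-negative, Ccl5-positive and NK cells of the WD and chow diet libraries (columns). Members share high values of Lef1 and Dapl1 with neither NK cells nor Ccl5-positive cells, and their Nkg7 (91.7% and 73.7%) lies between Ly6c2-negative (59.4% and 44.2%) and Ccl5-positive cells (98.3% and 98.7%).

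Of the cytotoxic genes, members carried Nkg7 and Ctsw but almost no granzyme transcripts. Nkg7, a protein of cytotoxic granules, was detected in 91.7% of WD and 73.7% of chow diet members, against 59.4% and 44.2% of Ly6c2-negative cells, 98.3% and 98.7% of Ccl5-positive cells and 1.45% and 2.27% of B cells. Ctsw, cathepsin W of cytotoxic lymphocytes, was in 60.4% and 63.2% of members, 28.1% and 18.6% of Ly6c2-negative cells, 78.8% and 78.7% of Ccl5-positive cells and 0.207% and 0.758% of B cells. After thinning, Nkg7 stood at 54.2% and 47.4% of members against 37.5% and 20.9% of Ly6c2-negative cells, and Ctsw at 31.3% and 31.6% against 10.9% and 2.33%. For both genes members stayed above Ly6c2-negative cells in each library at equal depth. The granzymes were all but missing: Gzma and Gzmb, the killing proteases, were each found in 1 WD member, and Gzmk, a granzyme of memory-like CD8 T cells, in none. Ifng, the interferon gamma gene, Klrc1, the NKG2A receptor, and Tbx21, the T-bet factor of effector cells, were also at 0 in all 67 members. Eomes, the related T-box factor of memory CD8 T cells, was found in 14.6% of WD and 5.26% of chow diet members, and Il2rb, the receptor chain for interleukin-2 and interleukin-15, in 25.0% and 21.1%. Cd44, raised on antigen-experienced cells, was found in 8.33% and 15.8% of members.

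Single members were mixed to a small extent. Of 5 naive genes (Ccr7, Lef1, Dapl1, Tcf7 and Igfbp4), at least 3 were detected in 39 of 48 WD and 15 of 19 chow diet members (81.3% and 78.9%). The same held for 54.7% and 41.9% of Ly6c2-negative cells and for 10.4% and 14.7% of Ccl5-positive cells. Of 9 effector genes (Gzma, Gzmb, Gzmk, Cxcr3, Klrk1, Xcl1, Ifng, Ccl4 and Prf1), at least 1 was found in 14 of 48 and 7 of 19 members, and at least 2 in 2 WD and 2 chow diet members. Among Ccl5-positive cells, at least 2 were found in 80.1% and 85.3%. At least 4 naive genes and at least 1 effector gene stood together in 6 WD and 4 chow diet members. Members with several effector genes were thus few in both libraries. A UMI of the mitotic genes Mki67, Top2a, Birc5 or Cdk1 was found in 2 of 48 and 1 of 19 members, against 13.0% and 17.3% of Ccl5-positive cells.

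**Figure D3:**
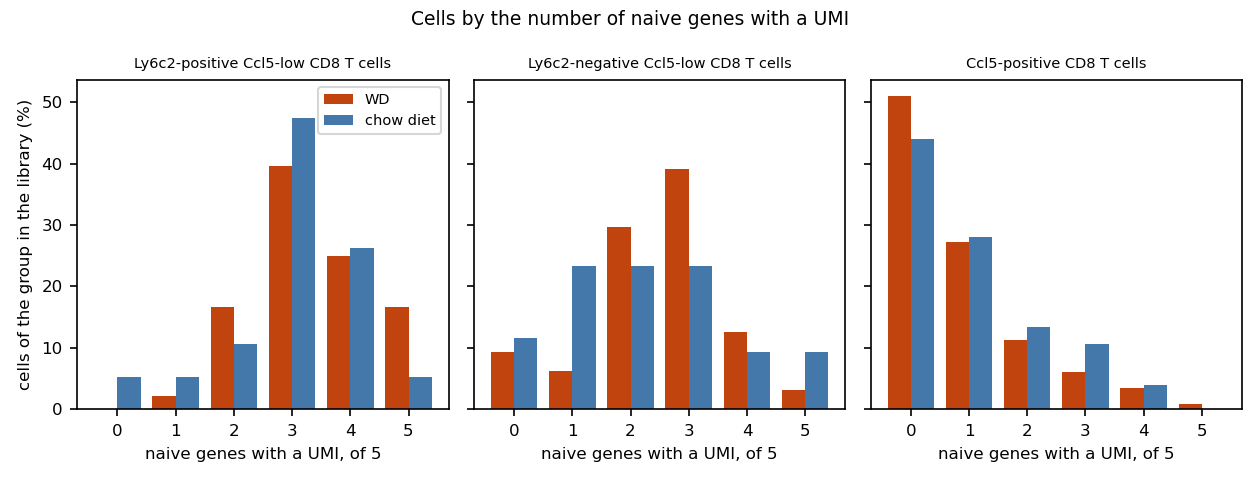
Percentage of cells (vertical axis) by the number of 5 naive genes detected in the cell (horizontal axis, 0 to 5), for members, Ly6c2-negative and Ccl5-positive cells, with WD and chow diet shown apart. Members peak at 3 genes, with 39 of 48 WD and 15 of 19 chow diet cells at 3 or more, against 10.4% and 14.7% of Ccl5-positive cells.

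The members were next compared with Ccl5-positive CD8 T cells, gene by gene. Most naive genes tested were higher in members, and several granzyme, killer receptor and chemokine genes were lower, in the counts given for each list. UMIs were summed per library and group, giving 8 sums over the 4 cell groups. They were tested with edgeR's quasi-likelihood test with Benjamini-Hochberg adjustment over all genes, the library as a block and a threshold of 0.05. Each group has 1 sum per library, and the block takes out the shift that all groups of a library share. The adjusted p thus rests on how far differences among the 4 groups vary between these 2 libraries of pooled aortas. It does not measure the spread between mice. Genes of the rule were left out of the calls. Of 2940 genes tested, 181 were higher (6.16%) and 101 lower (3.44%) in members. Scaling by library totals alone, in place of the trimmed mean of M values (TMM), gave 123 higher and 152 lower and moved the median log2 ratio of all genes to -0.23, against -0.01. Levels below are in CPM, the UMIs of a gene divided by all UMIs of the group in that library and scaled to a total of 1000000. With the 62 members without myeloid transcripts, 160 of 2313 genes were higher (6.92%) and 135 lower (5.84%).

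Among the 15 naive genes tested, of 16 listed, 9 were higher in members and none was lower, with a median log2 ratio of 1.67 against -0.01 over all genes tested. Igfbp4 stood at 181 CPM in WD and 220 CPM in chow diet members, against 9.95 and 3.05 CPM in Ccl5-positive cells (log2 ratio 4.76, SE 0.46, edgeR adjusted p = 1.41e-06). Dapl1 stood at 729 and 925 CPM in members, against 103 and 104 CPM in Ccl5-positive cells (log2 ratio 3.17, SE 0.23, edgeR adjusted p = 8.83e-08). Lef1 stood at 477 and 540 CPM, against 103 and 137 CPM in Ccl5-positive cells (log2 ratio 2.31, SE 0.24, edgeR adjusted p = 3.64e-06). Each of these 3 genes was higher in members within both libraries. Ccr7 (log2 ratio 2.17), the chromatin organiser Satb1 (1.67), the quiescence factor Klf2 (1.02), the actin crosslinker Actn1 (2.11) and Ramp1 were among the others that passed. Tcf7 (0.73, edgeR adjusted p = 0.171) and Il7r, the interleukin-7 receptor that sustains naive and memory T cells (0.90, edgeR adjusted p = 0.186), did not pass among all 67 members, but passed among the 62 with log2 ratios of 0.94 and 1.13 (edgeR adjusted p = 0.0261 and 0.0203).

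Of 10 cytotoxic granule genes tested, of 14 listed, none was higher and 5 were lower in members, with a median log2 ratio of -1.76. Nkg7 stood at 980 CPM in WD and 628 CPM in chow diet members, against 3625 and 3259 CPM in Ccl5-positive cells (log2 ratio -1.91, SE 0.18, edgeR adjusted p = 1.09e-06). Gzma stood at 5.03 and 0 CPM in members, against 826 and 1088 CPM in Ccl5-positive cells (log2 ratio -7.72, edgeR adjusted p = 2.87e-09), and Gzmb at 5.03 and 0 CPM against 397 and 781 CPM (-6.92, edgeR adjusted p = 2.81e-06). Gzmk had 0 UMIs in members and 380 in Ccl5-positive cells, at least 32.4-fold lower against a floor of 3 UMIs over the group (edgeR adjusted p = 3.18e-06; DESeq2 adjusted p = 0.106). Fasl, the ligand of the death receptor Fas, was the other gene to pass (log2 ratio -5.36). Ctsw did not pass, at 297 and 264 CPM in members against 562 and 448 CPM in Ccl5-positive cells (log2 ratio -0.66, SE 0.22, edgeR adjusted p = 0.0749).

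Parts of the killer receptor and chemokine lists were lower in members. Of 9 inhibitory killer receptor genes tested, 4 were lower (Klra7, Klrc1, Klre1 and Klrg1), and of 13 activating ones, 4 were lower (Klrk1, Klrc2, Cd160 and Slamf7), with none higher in either list; reads of the near-identical Klra genes may be split between them. Klrc1 was at least 28.7-fold lower, with 0 UMIs in members against 265 and 375 CPM in Ccl5-positive cells. Klrk1, the activating receptor NKG2D, stood at 5.03 and 22.0 CPM in members, against 327 and 277 CPM in Ccl5-positive cells (log2 ratio -4.61). Both were thus at or near 0 in members, unlike Klrd1, the CD94 partner chain, found in 47.9% and 36.8% of members (log2 ratio -0.36, not called). Of 7 chemokine and cytokine genes tested, Xcl1 (log2 ratio -3.63), Ccl4 (-2.01, and -3.91 in the 62) and Ifng (at least 13.0-fold lower) were lower. Of 10 effector genes tested, 7 were lower and none higher, with a median of -1.71; in the 62, all 9 tested were lower. The effector gene S100a6, a calcium-binding protein of activated cells, was at 216 and 187 CPM in all members against 985 and 1137 CPM in Ccl5-positive cells, and at 29.3 and 27.2 CPM in the 62 (log2 ratio -4.88).

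Genes that direct cells to tissues split in both directions. Of 16 homing and adhesion genes tested, of 17 listed, 4 were higher in members, among them Ccr7, the gut-homing integrin chain Itgb7 (log2 ratio 1.07) and the chemokine receptor Ccr9 (2.84). Ccr9, which guides thymocytes and gut-homing T cells, stood at 70.4 and 132 CPM in members against 11.2 and 21.3 CPM in Ccl5-positive cells (edgeR adjusted p = 0.002). A further 7 were lower, among them Itga4, Itgb1, Cxcr3, Cxcr6, Ccr2 and Itgb2. Cxcr3, the receptor for interferon-induced chemokines, had a log2 ratio of -3.58, and the integrin chain Itgb1 of -3.20. The list as a whole thus had no common direction. Of 9 tissue-resident memory genes tested, 4 were lower (Cxcr6, Bhlhe40, Rgs1 and Nr4a2) and none higher. Of 12 virtual and central memory genes tested, 1 was higher, and Il2rb (-1.46), Cxcr3, the survival gene Bcl2 (-1.36), Tbx21 and Samd3 were lower.

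**Figure D4:**
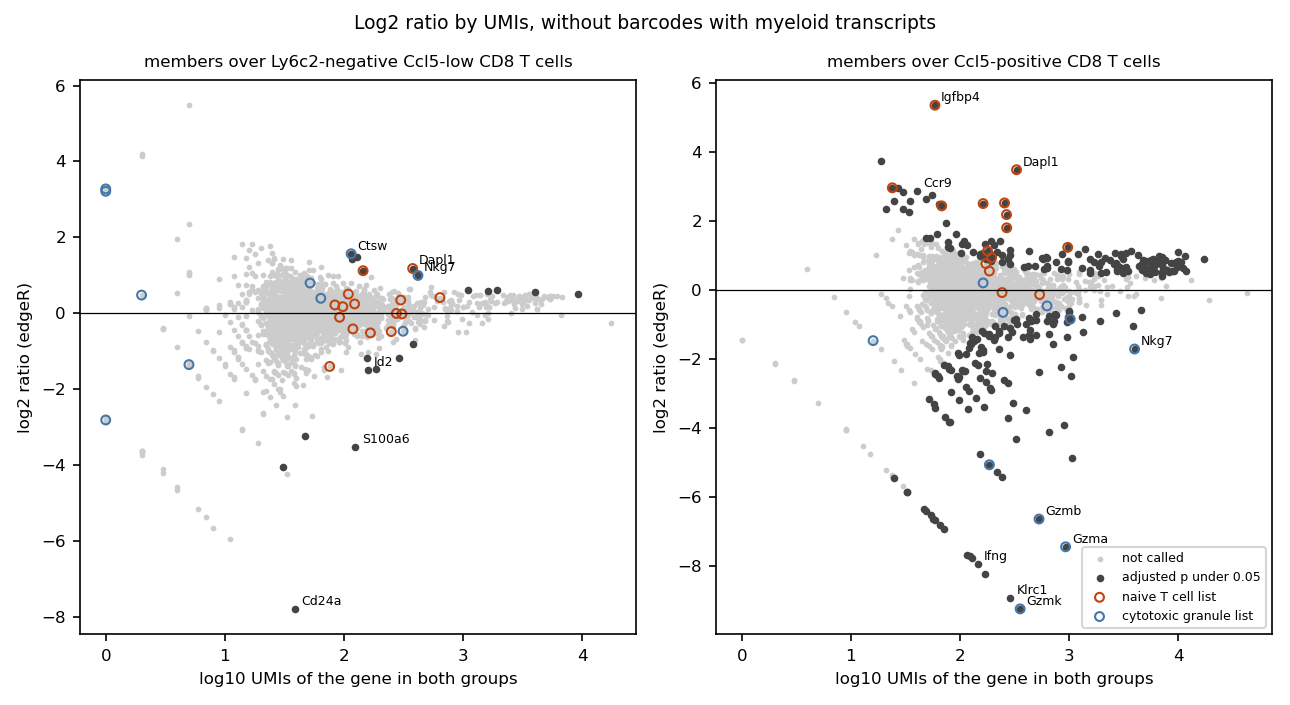
Log2 ratio from edgeR (vertical axis) against log10 UMIs of the gene in both groups (horizontal axis), for members over Ly6c2-negative cells (left) and members over Ccl5-positive cells (right), without barcodes with myeloid transcripts. Dark points passed an adjusted p of 0.05, red circles mark the naive list and blue circles the cytotoxic granule list. On the right, Igfbp4 and Dapl1 lie high and granzymes low; on the left few genes passed, among them Ctsw, Dapl1 and Nkg7 above 0 and S100a6 and Id2 below.

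Further lists had fewer calls or calls in both directions. Of 12 type I interferon genes tested, of 20 listed, 1 was higher and none was lower, with a median of -0.24; in the 62, 1 of 11 tested was higher and Zbp1 was lower. Of 16 T cell receptor signalling genes, Fyn, Cd28 and Ptpn22 were lower and none was higher, with a median of -0.60. Of 17 immediate early genes, which enzymatic digestion of tissue also induces, Fos, Zfp36 and Nfkbia were higher in all 67 members, and in the 62 none was higher and Nr4a1 of 15 tested was lower. Of 14 transcription factors tested, Lef1 and Id3 were higher, and Tbx21, Id2 (log2 ratio -1.05) and Rora were lower, with a median of -0.82. In the 62, Tcf7 and Lef1 of 12 tested were higher, Id3 was not among the calls, and the lower genes were the same. Of 10 apoptosis and survival genes tested, Bcl2, Bcl2a1b and Bcl2a1d were lower and none was higher; reads of the near-identical Bcl2a1 genes may be split between them.

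Among all 67 members, the 3 highest ratios over Ccl5-positive cells were those of genes found in the cells with myeloid transcripts. Thbs1, a matrix glycoprotein of monocytes, had 42 UMIs in members and 0 in Ccl5-positive cells (at least 54.7-fold higher). Cxcl2 (log2 ratio 5.78) and Cd14 (5.31) were next, ahead of the naive gene Igfbp4 (4.76) and of Wfdc17 (4.32). Among the 62 members, no gene of the B cell, macrophage or dendritic cell lists was higher, but only 3, 1 and 3 of their genes were tested. For the macrophage list this was partly fixed, since the panel that set these cells apart shares genes with it. Igfbp4 then had the highest ratio of the named genes (5.37), and others that were higher included Ccr9 (2.88), Ppic (2.84), the interleukin-6 receptor gene Il6ra (2.76), the class II peptide-loading gene H2-DMa (2.64), which is in none of these lists, and Timp2 (2.34).

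Members were then compared with Ly6c2-negative cells, which differ by rule in Ly6c2 alone. Few genes passed, and among T cell genes these were Ctsw, Dapl1 and Nkg7, all higher in members. Of 2940 genes tested, 4 were higher (0.136%) and 5 lower (0.17%), and scaling by library totals alone gave 3 and 6 with a median of all genes of -0.12. Ctsw stood at 297 CPM in WD and 264 CPM in chow diet members, against 117 and 65.1 CPM in Ly6c2-negative cells (log2 ratio 1.68, SE 0.29, edgeR adjusted p = 0.00751). Dapl1 stood at 729 and 925 CPM, against 417 and 349 CPM in Ly6c2-negative cells (log2 ratio 1.18, SE 0.22, edgeR adjusted p = 0.0206). Nkg7 stood at 980 and 628 CPM, against 607 and 261 CPM in Ly6c2-negative cells (log2 ratio 1.00, SE 0.20, edgeR adjusted p = 0.0320). All 3 genes were higher in members of both libraries. The fourth gene was Cxcl2, at 261 and 2831 CPM in members against 126 and 450 CPM in Ly6c2-negative cells, where the groups overlap and 1 chow diet member held 255 of the UMIs. The genes lower in members were Lyz2 (log2 ratio -2.20), H2-Eb1 (-1.31), H2-Aa (-1.27), Cd74 (-1.16) and H2-Ab1 (-0.87), of myeloid and antigen-presenting cells. The class II genes turned round where each CD8 T cell had to hold a Cd8b1 UMI, with log2 ratios of 0.17 for H2-Eb1, 0.19 for H2-Aa, 0.53 for Cd74 and 0.76 for H2-Ab1, and H2-Ab1 stood at 0.36 without the barcodes with myeloid transcripts.

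Without the barcodes with myeloid transcripts, 11 genes were higher (0.476%) and 9 lower (0.389%) of 2313. Ctsw (log2 ratio 1.57, edgeR adjusted p = 0.00445), Dapl1 (1.18, edgeR adjusted p = 0.0021) and Nkg7 (0.99, edgeR adjusted p = 0.00564) passed again. Also higher were Dusp2, a phosphatase of activated lymphocytes, at 399 and 231 CPM against 144 and 124 CPM (log2 ratio 1.48), Plac8, at 352 and 231 CPM against 175 and 57.9 CPM (1.43), and ribosomal protein genes with log2 ratios of 0.52 to 0.61, whose reads may be shared with pseudogenes. Lower in members were S100a6, at 29.3 and 27.2 CPM against 253 and 571 CPM in Ly6c2-negative cells (log2 ratio -3.53, edgeR adjusted p = 8.45e-06), and Id2, an inhibitor of E proteins that effector cells raise, at 135 and 109 CPM against 371 and 455 CPM (-1.50, edgeR adjusted p = 0.00445). Lgals1, the galectin-1 gene, was lower too (-1.46), so 3 of 9 effector genes tested were lower and none higher. These levels rest on few cells: among all 107 Ly6c2-negative cells S100a6 was found in 16, with up to 41 UMIs in 1 cell, and Id2 was found in 34.4% of WD and 32.6% of chow diet cells, with up to 42, against 29.2% and 26.3% of all members. Cd24a had 0 UMIs in these members and 39 in Ly6c2-negative cells, at least 10.1-fold lower. Tmem176b, of the gamma delta T cell list, had 1 UMI in these members and 30 in Ly6c2-negative cells (log2 ratio -4.04, edgeR adjusted p = 0.0455). Whether the Ly6c2-negative group holds gamma delta T cells was not tested. In the 62 cells Cd74 had a log2 ratio of -0.41 (edgeR adjusted p = 0.820).

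Most other naive genes were not told apart between these groups. Lef1 had a log2 ratio of 0.33 (edgeR adjusted p = 0.772), Ccr7 of -0.18 (edgeR adjusted p = 0.898), Igfbp4 of 0.42 (edgeR adjusted p = 0.794) and Tcf7 of -0.57 (edgeR adjusted p = 0.653). Ms4a4b, a membrane protein of naive and memory T cells, had 0.76 (edgeR adjusted p = 0.260), and Eomes 1.64 (edgeR adjusted p = 0.595). The 15 naive genes tested had a median of -0.07, with 1 higher and none lower; in the 62, 2 were higher and none lower, with a median of 0.17. The 10 cytotoxic granule genes had a median of 0.60 (0.06 with genes at 0 in a group set to their bound), with 2 higher and none lower. The 3 T cell calls depend on the fit: without the library block edgeR called 0 genes higher and 1 lower (92 and 116 at an unadjusted p under 0.05), and after thinning to 1000 UMIs 0 and 0 of 738 (57 and 37). DESeq2 called 2 and 2 (60 and 43 unadjusted), and asking for at least 1 Cd8b1 UMI in each CD8 T cell left 1 higher, Cxcl2, and 0 lower (63 and 78 unadjusted), with Ctsw at a log2 ratio of 1.41 (edgeR adjusted p = 0.0966). Over the settings tried, the adjusted p from edgeR or DESeq2 ran between 0.000734 and 0.108 for Ctsw, 0.0021 and 0.463 for Dapl1, and 0.00434 and 0.493 for Nkg7, and the log2 ratio stayed positive in each.

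Against NK cells, members showed T cell and naive genes on the higher side and NK receptors and granule genes on the lower side. Among all members, 257 of 2938 genes tested were higher (8.75%) and 170 lower (5.79%). Library totals alone gave 184 and 339 with a median of all genes of -0.37. Wfdc17, Thbs1 and Cxcl2 were among the 8 highest named ratios. Of the B cell, macrophage and dendritic cell lists, 3 of 3, 3 of 4 and 3 of 5 genes tested were higher. Ccr2 was lower. Without the members with myeloid transcripts, 259 of 2311 genes were higher (11.2%) and 233 lower (10.1%). No gene of these lists was then higher, but only 3, 1 and 3 of their genes were tested. The filter itself limits the macrophage list. Levels below are for all members. Dapl1 had 0 UMIs in NK cells and was at least 51.7-fold higher in members (edgeR adjusted p = 8.3e-09). Bcl11b, a factor that holds cells in the T lineage, was at least 13.1-fold higher, Ccr7 had a log2 ratio of 4.60, Lef1 of 3.78 and Lat, an adaptor of the T cell receptor, of 3.05. Gzma stood at 5.03 and 0 CPM in members, against 9067 and 7882 CPM in NK cells (log2 ratio -10.74, edgeR adjusted p = 2.33e-13). All 12 NK cell genes tested, of 15 listed, were lower in members, and so were 8 of 9 inhibitory and 10 of 11 activating killer receptor genes. Klra7 was at least 79.8-fold lower, Xcl1 had a log2 ratio of -6.08 and Cd7 of -1.74 (edgeR adjusted p = 0.00189). Nkg7 (-2.09) and Ctsw (-1.13) were lower in members than in NK cells as well. The 3 comparisons share the members' sums and are not independent of each other.

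Marker sums of other cell types were taken in the 62 members and in all 67. The 15 NK genes summed to 311 CPM in WD and 204 CPM in chow diet members (638 and 551 with all 67), with Ncr1, Klrb1c, Klra8, Klra4, Klre1 and Itga2 at 0. Gamma delta T cell genes summed to 5.86 and 27.2 CPM (30.2 and 66.1 with all 67), with Cd163l1 and Sox13 at 0. The same genes summed to 16.2 and 33.5 CPM in all Ccl5-positive cells and to 221 and 728 CPM in all Ly6c2-negative cells. Thymocyte genes summed to 264 and 435 CPM (241 and 375 with all 67), with Rag1, Rag2 and Ptcra at 0. They summed to 352 and 360 CPM in all Ccl5-positive cells and to 456 and 408 CPM in all Ly6c2-negative cells. This list holds Ccr9 and the T cell gene Themis. Macrophage and monocyte genes summed to 64.5 and 122 CPM (166 and 1278 with all 67), and dendritic cell genes, which include Cd74, to 117 and 245 CPM (3844 and 2666 with all 67). Neutrophil genes summed to 11.7 and 0 CPM in the 62, against 276 and 0 with all 67. Several markers of NK, gamma delta and immature T cells were thus at 0, but not all. Arpp21 had UMIs in both libraries, and Dntt and Blk in the chow diet library. The rule itself limits Dntt, Rag1 and Arpp21. Sums of myeloid lists sat mostly in the 5 barcodes. The panel that set these barcodes apart shares genes with the macrophage, neutrophil and NK lists, so those drops were partly fixed by that choice.

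Shares of these cells had overlapping intervals in the WD and chow diet libraries. Members made up 2.33% of kept WD cells (exact 95% interval 1.72 to 3.08%) and 2.12% of kept chow diet cells (1.28 to 3.29%). They were 48 of 343 CD8-gated T cells in the WD library (10.5 to 18.1%) and 19 of 137 in the chow diet library (13.9%, 8.56 to 20.8%). Of CD8-gated cells with low Ccl5, they were 42.9% of 112 WD cells (33.5 to 52.6%) and 30.6% of 62 chow diet cells (19.6 to 43.7%). The intervals cover counting error only, and the last pair of shares lies furthest apart.

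Levels within the members were compared between the diets without a test, since each diet has 1 library. With all 67 members, 93 of 1491 genes with at least 20 UMIs were past 2-fold higher in WD (6.24%) and 84 past 2-fold lower (5.63%). Several of the lowest came from 1 chow diet cell with myeloid transcripts, such as Cxcl2, with 52 UMIs in WD and 257 in chow diet members, and Ccl2, with 0 and 77. With the 62 members, 71 of 1200 genes were past 2-fold higher (5.92%) and 47 lower (3.92%).

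Naive genes in the 62 members differed little by diet, with 1 exception. Lef1 stood at 545 CPM in WD and 612 CPM in chow diet members (ratio 0.892, exact 95% interval 0.618 to 1.30), and Dapl1 at 850 and 1115 CPM (0.763, 0.578 to 1.01). Il7r stood at 299 CPM in WD and 81.6 CPM in chow diet members (51 and 6 UMIs, ratio 3.67, 1.57 to 10.5), and was found in 25 of 45 and 4 of 17 cells. Tcf7, at 258 and 150 CPM, had a ratio of 1.73 (0.877 to 3.71). Of 14 naive genes measured, 9 were above and 5 below equal levels, with a median log2 ratio of 0.17 against 0.03 over all genes. The list's level was thus nearly the same in both libraries, at summed levels of 5941 CPM in WD and 5655 CPM in chow diet members, and Il7r was the member past 2-fold.

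Among the genes furthest from equal in the 62, Tsc22d3, a glucocorticoid-induced leucine zipper gene, stood at 381 CPM in WD and 109 CPM in chow diet members (65 and 8 UMIs, ratio 3.51, 1.68 to 8.46). Crem, a cAMP-responsive factor, had 38 UMIs in WD and 4 in chow diet members (ratio 4.10, 1.48 to 15.8), and the signalling adaptor gene Sh2d2a 19 and 1 (8.20, 1.30 to 341). On the lower side, AY036118 had 4 UMIs in WD and 17 in chow diet members (0.102, 0.0249 to 0.311; 0.253 with all 67). Runx3, a factor of the CD8 lineage, stood at 88.0 and 258 CPM (0.341, 0.161 to 0.707), but with all 67 at 120.6 and 209.3 CPM (0.576, 0.303 to 1.11), where the interval includes 1. These rest on few UMIs, as the width of the intervals shows. Of 14 immediate early genes, 6 were above and 8 below equal levels, with a median log2 ratio of -0.41; Junb stood at 1302 and 829 CPM (1.57, 1.18 to 2.12) and the heat shock gene Hspa1b had 15 and 17 UMIs (0.381). With all 67, Junb stood at 1322 and 1267 CPM (1.04, 0.835 to 1.31), with no difference beyond counting error, and Hspa1b had 17 and 31 UMIs. Cytotoxic granule genes summed to 2228 CPM in WD and 1645 CPM in chow diet members of the 62. With all 67, these genes held 433 of 198996 UMIs in WD and 203 of 90783 in chow diet members. The level was thus not higher in WD with all 67. Handling and diet cannot be told apart in these values.

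**Figure D5:**
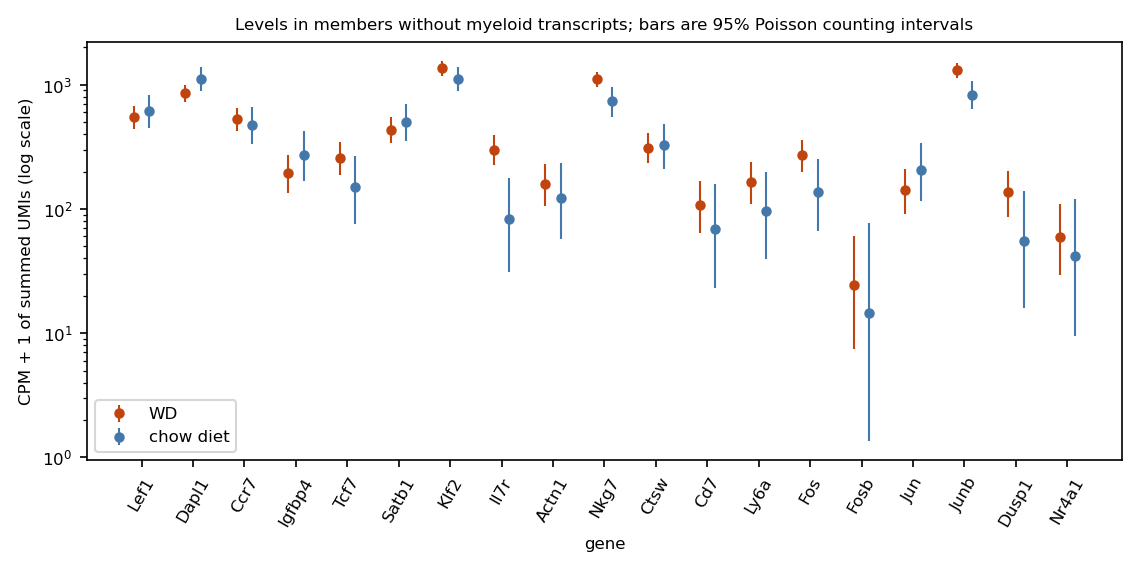
Level in CPM plus 1 (vertical axis, log scale) of 19 genes in members without myeloid transcripts, for WD and chow diet; points are the summed level of the library and bars exact 95% Poisson intervals. Il7r (299 against 81.6 CPM) and Junb (1302 against 829 CPM) lie higher in WD, Junb only in these cells and not with all 67 members (1322 against 1267 CPM), while the intervals of Lef1, Dapl1 and Ccr7 overlap between the libraries.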

How the data were processed

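The authors deposited UMI counts per gene and cell barcode for 1 WD and 1 chow diet library, and no normalization was applied. Cell Ranger and STAR with mm10 are named in the submitters' processing notes, with no version in the labels. The files hold 2077 WD and 909 chow diet barcodes with 8782901 and 4608033 UMIs, and median kept cells of 3191 and 3747.5 UMIs limit the precision. Removed were 0 and 2 barcodes under 200 genes and 16 and 11 with over 10% mitochondrial UMIs. Gene symbols were set by ID (27645 of 27998 matched). The members and the 34 gene lists were chosen with earlier results of these data known. Summed counts were fitted in edgeR 4.0.16 (R 4.3.3) with TMM, its expression filter, and the library as a block, since the groups of a library come from the same pool; alternatives were DESeq2 1.42.0, other scaling, filters and gates, thinned cells and no block. Shares have exact Clopper-Pearson intervals, ratios between diets exact conditional ones at 95%, covering counting error only. Named genes are the 12 highest and 12 lowest called log2 ratios with at least 30 UMIs (8 and 8 for NK cells, 10 and 10 for diets with at least 20 UMIs and an interval without 1), the label's markers, rule genes and list members; a few others were named after their values were seen. Scripts were tested on simulated data. A few genes counted in the lists are not reported here by name.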

Additional observations from a re-analysis of the deposited data

How the results depend on the processing

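Among values with a test under other settings, 208 of the named genes' values against Ccl5-positive cells kept direction and call, 8 lost the call and 4 turned round; against NK cells 159 kept both and 3 lost the call. Against Ly6c2-negative cells 45 kept both, 43 lost the call and 5 turned round. Between diets, with no test, 95 kept direction, 7 turned round and 2 went to 0. Leaving out either library gave values without a test, and no named gene changed direction.

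Against Ccl5-positive cells, DESeq2 called 105 higher and 41 lower, library totals 152 lower, no low-count filter 155 lower, and thinning to 1000 UMIs, where 738 genes are tested, 81 and 57. Against Ly6c2-negative cells, DESeq2 called 2 and 2, no filter 9 and 31, thinning 0 and 0, the fit with no replicate block 0 and 1, a mitochondrial limit of 5% and a Ccl5 limit of 0 left 3 lower each, a Cd8b1 UMI in each cell 1 and 0, and leaving out myeloid-marked barcodes 11 and 9. Against NK cells, DESeq2 called 101 lower, library totals 339 lower and thinning 110 and 103. The libraries pair the groups; without the block, 122 and 77 genes were called against Ccl5-positive cells and 221 and 152 against NK cells. The causes were not tested beyond the number of genes that thinning leaves.

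Asking for 2 Ly6c2 UMIs gave 1.41% of WD and 1.12% of chow diet kept cells and 8.46% and 7.30% of CD8-gated cells; thinning gave 1.21% and 0.893%, and 8.77% and 6.02%. Leaving out barcodes with 3 or more UMIs of another lineage gave 5.94% and 4.62%, since this also removes B cells and myeloid cells from the total. Between diets, genes past 2-fold lower numbered 33 with 2 Ly6c2 UMIs, 50 without mixed-lineage barcodes, 47 without myeloid-marked ones and 19 without the top cell; thinning gave 16 higher and 21 lower.

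Reversed values were Cd24a (-3.71 without mixed-lineage and -4.07 without myeloid-marked barcodes) and Tyrobp (-3.67 and -2.61) against Ccl5-positive cells. Tyrobp belongs to the myeloid panel, so its value without myeloid-marked barcodes was shaped by that filter. Against Ly6c2-negative cells with Cd8b1 in each cell they were H2-Eb1 (0.17), H2-Aa (0.19), Cd74 (0.53) and H2-Ab1 (0.76), with H2-Ab1 also at 0.36 without myeloid-marked barcodes. Between diets, Cxcl2 stood at 6.11 with 2 Ly6c2 UMIs, and without the top cell Ier3 at 1.30, Retnla at 0.36, Thbs1 at 3.05, Osm at 0.98, Cxcl2 at 3.38 and Clec4e at 2.77 (log2), while S100a9 and Ccl2 went to 0. The alternative without myeloid-marked barcodes was chosen after seeing the data; the number of members limits what these libraries can show.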
